A study of Mus musculus with 12 samples.

Results

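The expression of CAG150 cells was compared with that of HM1 cells at day 6 of neuronal differentiation, on 6 of the 12 arrays of the series. The arrays were chosen by the line and the day in the sample titles, which gave 3 arrays of each line. HM1, the control, comes from a male mouse embryo and has no working copy of Hprt. CAG150 cells are mouse embryonic stem cells with an expanded CAG repeat, which in this study lies in Htt, the gene of huntingtin, as far as the study is known, and HM1 is the line without the expansion. Both groups had gone through 6 days of neuronal differentiation, and the labels name no other agent, medium, allele or passage. The other 6 arrays hold the same lines at day 4. They took part in the estimate of the spread and give the day 4 value of a gene where one is set beside its day 6 value.

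The labels go against each other for these arrays. The descriptions of the 3 HM1 arrays titled day 6 state the earlier day, and the descriptions of all 6 day 6 arrays state replicate 1, so the day and the replicate number rest on the titles. The mean intensity of Tubb3, the tubulin of neurons, was 530.5 ± 47.7 (SD, n = 3) on the HM1 arrays titled day 4 and 2064 ± 246 on those titled day 6. Stmn2, another neuron marker, had nearly the same mean on both sets of HM1 arrays, as given below. The days in the titles were not tested. Whether the 3 samples of each group came from separate cultures is not stated, so a p-value reflects only how far these samples scatter, which may be technical. There was 1 line of each kind, and an effect of the repeat cannot be told apart from any other difference between the lines. In such bulk samples, fewer cells of a type and less RNA per cell cannot be told apart either.

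Stem cells that are turned toward neurons first lose the factors of pluripotency, then form a neural epithelium, and then give rise to neurons. Within that epithelium Wnt and BMP signals set dorsal identity, Sonic hedgehog sets ventral identity, and transcription factors such as Otx and Hox proteins mark the position from front to back. Contractile actin genes are switched on by serum response factor (SRF), mostly outside the nervous system, and huntingtin is a large scaffold protein of transport and transcription whose expanded glutamine stretch causes Huntington's disease.

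Values are mean intensities ± SD of 3 arrays, and differences are CAG150 minus HM1 on the log2(intensity + 16) scale ± SE, which understates the change of dim genes. Folds come from these differences, and where a change is given as from and to, HM1 comes first. A gene was called where limma's p was under 0.05 after Benjamini-Hochberg adjustment across 45037 probe sets, and the adjusted p-values below are from this fit. Of these probe sets, 3115 were called (6.92%), 1607 higher and 1508 lower in CAG150, and 9192 had an unadjusted p under 0.05. Each gene is represented by the probe set that was brightest on average across the arrays. Of 18193 genes, 752 were higher in CAG150 (4.13%) and 939 were lower (5.16%), while the groups did not overlap for 5537 genes (30.4%). With 1 array left out, the higher genes numbered 378 without CAG150 replicate 3, 464 without CAG150 replicate 1, 450, 481 and 482 without HM1 replicate 2, 3 and 1, and the lower genes 625 without CAG150 replicate 3. With each array centred on its median, 447 genes were higher and 1077 lower. The median difference over all genes was -0.0088. Changes of at least 2-fold were more often falls, with 226 genes lower and 81 higher, and 35 and 14 of these changed at least 4-fold. The median intensities of the 6 arrays lay between 21.5 and 25.9, and every array correlated better with the arrays of its own group than with those of any other.

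**Figure D1:**
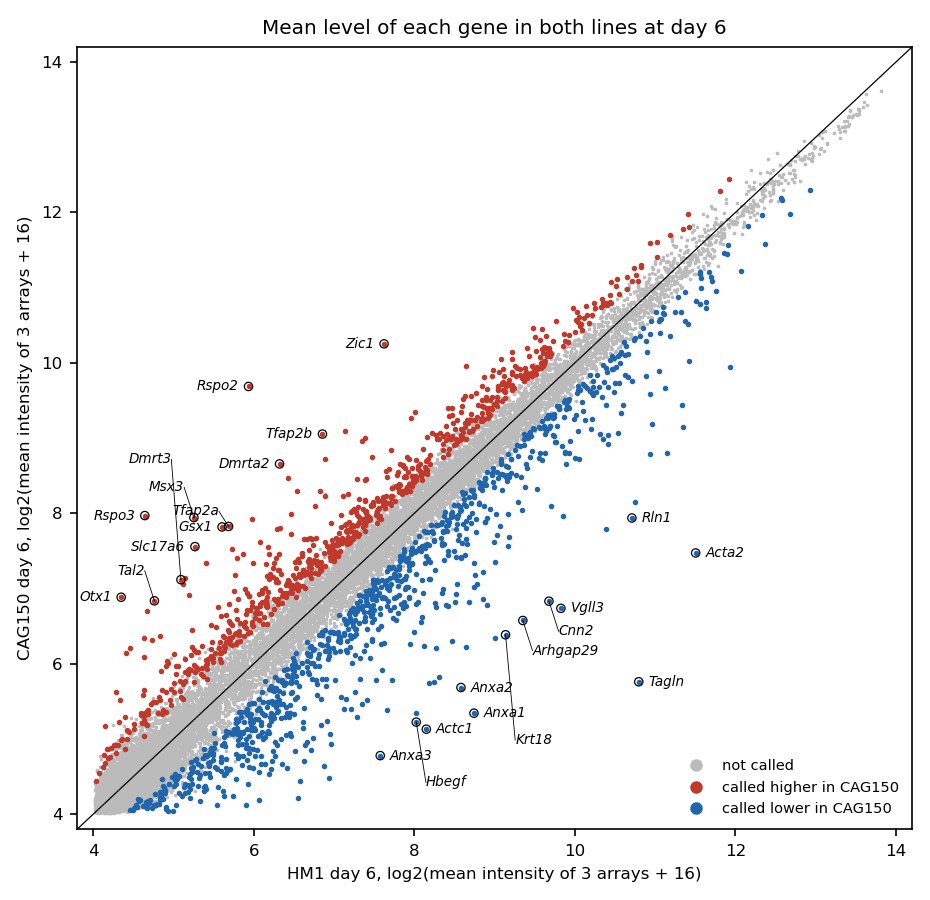
Mean level of each of the 18193 genes in HM1 (horizontal axis) and CAG150 (vertical axis) at day 6, as log2(mean intensity of 3 arrays + 16), with called genes in red and blue and the 12 largest rises and falls circled and named. Tagln and Acta2 lie farthest below the diagonal of equal levels, and Rspo2 and Rspo3 farthest above it.

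The largest rises in CAG150 were of secreted activators of Wnt signalling and of transcription factors that pattern the dorsal and anterior neural tube. Rspo2, an R-spondin that strengthens Wnt signals at the cell surface, had intensities of 38.7, 46.4 and 50.2 on the HM1 arrays and 766, 725 and 932 on the CAG150 arrays. All 3 CAG150 arrays lay far above all 3 HM1 arrays, a 13.4-fold rise (log2 difference 3.75 ± 0.18, adjusted p = 1.7e-07). Rspo3, of the same family, was near the low end in HM1 at 9.86, 6.71 and 10.3 and reached 236, 199.5 and 268 in CAG150 (9.997-fold, 3.32 ± 0.11, adjusted p = 1.6e-08). Msx3, a homeobox factor of the dorsal neural tube, went from 27.2, 20.2 and 19 to 196, 220.3 and 273 (6.43-fold, adjusted p = 1.1e-06). Zic1, a zinc finger factor of the same region, was well measured in both lines, at 163, 185 and 194 in HM1 and 1134, 1046 and 1432 in CAG150 (6.15-fold, 2.62 ± 0.14, adjusted p = 5.7e-07).

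Next in size were Otx1, a head and forebrain homeobox factor on chromosome 11 (5.73-fold, from 4.34 ± 4.09 to 102 ± 30.03), and Dmrta2, a regulator of the dorsal forebrain (5.05-fold, from 63.9 ± 12.1 to 387 ± 62). Slc17a6, the vesicular glutamate transporter of excitatory neurons, rose 4.95-fold, from 22.5 ± 11.3 to 172 ± 36.4. Gsx1, an intermediate neural tube factor, rose 4.68-fold from 32.6 ± 8.2 to 209.6 ± 19.1. Tfap2b and Tfap2a, transcription factors of neural crest and dorsal neurons, rose 4.64-fold and 4.39-fold. Tal2, a factor of midbrain inhibitory neurons, rose 4.2-fold from 11.1 ± 3.85, and Dmrt3, of the cortex and spinal interneurons, 4.17-fold from 18.1 ± 8.83. In none of the 12 did an array of CAG150 overlap an array of HM1, which the choice of these genes required.

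**Figure D2:**
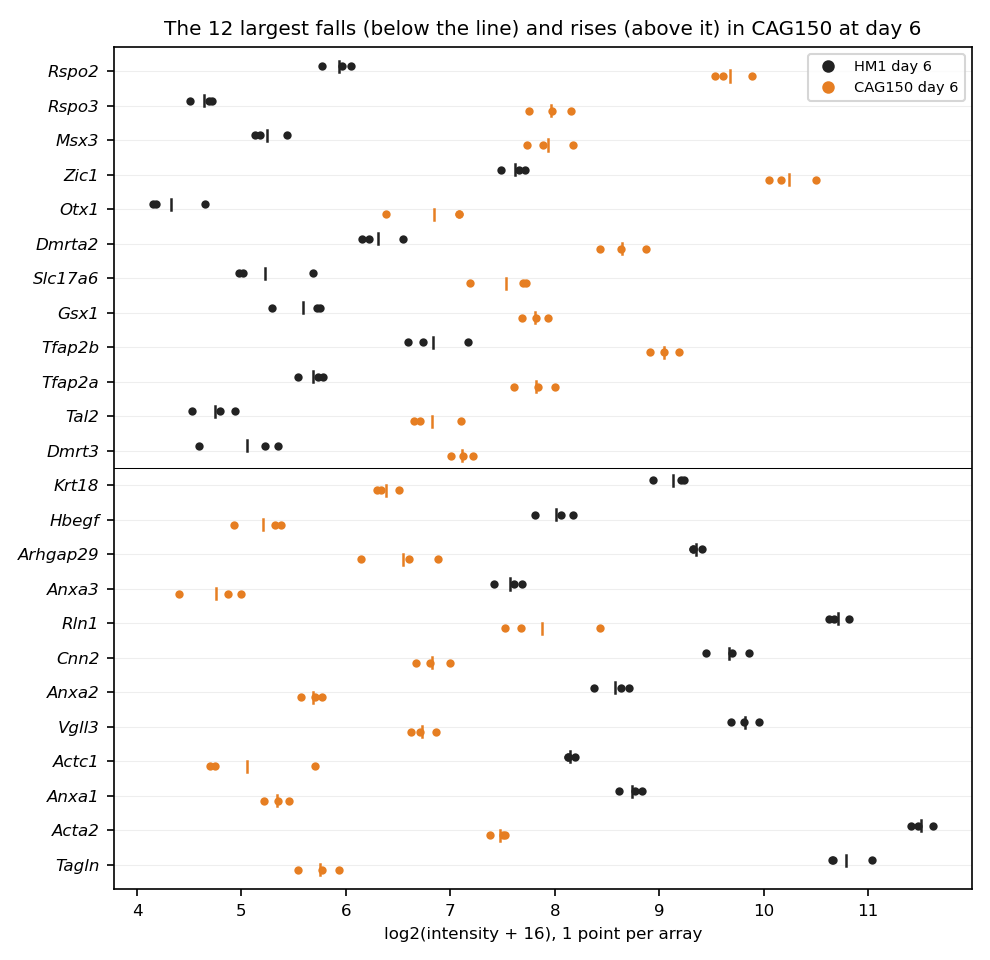
Levels on each of the 6 day 6 arrays, as log2(intensity + 16), of the 12 genes with the largest rise and the 12 with the largest fall in CAG150, with HM1 in black, CAG150 in orange and a bar at each group mean. The points of the lines do not overlap for any of the 24 genes, and the widest gap is that of Tagln.

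The largest falls included those of contractile genes and annexins. Tagln, the actin-binding protein transgelin of smooth muscle, had intensities of 1599, 1604 and 2083 in HM1 and 45.3, 30.5 and 38.7 in CAG150, a 32.8-fold fall (-5.03 ± 0.13, adjusted p = 2.2e-09). Acta2, smooth muscle actin, was at 2833, 2702 and 3133 in HM1 and 168, 151 and 166 in CAG150 (16.4-fold lower, -4.03 ± 0.12, adjusted p = 5.9e-09). For both genes every CAG150 array lay far below every HM1 array. Anxa1, which binds membranes in the presence of calcium, went from 377, 419 and 441 to 27.7, 21.1 and 24.8 (10.6-fold lower, adjusted p = 4.8e-08). Vgll3, a cofactor of TEAD transcription factors, fell 8.51-fold, from 891 ± 84.6 to 90.6 ± 9.26, with all 3 of its probe sets called. Hbegf, a growth factor of the EGF family, fell 7-fold. Rln1, the hormone relaxin, fell 7.1-fold from 1659 ± 117 to 229 ± 87.9.

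The list of smooth muscle and actin contraction genes had 29 measured members, of which 22 fell and 0 rose, with a median difference of -1.02, against 5.16% lower and a median of -0.0088 over all genes. Members that fell were cardiac actin Actc1 (-3.10), the calponins Cnn2 (-2.84) and Cnn1 (-2.33), the regulatory light chain Myl9 (-2.50), tropomyosin Tpm1 (-2.35) and skeletal actin Acta1 (-1.67). Proteins of actin bundles and adhesion sites in many cell types also fell, among them nonmuscle myosin Myh9 (-1.50), caldesmon Cald1 (-1.40), actinin Actn1 (-1.07), vinculin Vcl (-1.08) and filamin Flna (-0.88). Actc1 intensities were 263, 263 and 277 in HM1 and 10.9, 36.1 and 10.01 in CAG150, where replicate 2 was the highest and still far below HM1. Tpm4 (-0.31 ± 0.088), Cnn3 (-0.15 ± 0.092) and Csrp2 (0.11 ± 0.14) were not called. Tpm4 did pass in several alternatives, with adjusted p = 0.0025 at a pseudocount of 64 and 0.048 with median centring. Tagln, Acta2 and Actc1 kept their calls with any of the 6 arrays left out.

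The markers of smooth muscle and fibroblasts fell in their sum, but not every marker was called. Their summed intensity lay between 4500 and 5450 in HM1 and between 252 and 284 in CAG150, and 4 of 7 were lower, namely Acta2, Tagln, Cnn1 and Col3a1. Myh11, the smooth muscle myosin, was below the level of 11.9 in both lines, which is the 40th percentile of all probe sets and is called dim here. The collagens Col1a1 and Col1a2 were at 16.8 ± 4.15 and 44 ± 7.68 in HM1 and at 11.7 ± 0.695 and 33.6 ± 5.05 in CAG150. Their differences of -0.24 ± 0.13 and -0.27 ± 0.13 were not called.

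Genes linked to SRF and to YAP, the factors that respond to tension in the actin skeleton, were lower in 8 of 15 cases and higher in 0, with a median of -0.49. Beside Vgll3 these were the matrix protein thrombospondin, Thbs1 (-1.29), and the secreted proteins Ccn2 (-1.25) and Ccn1 (-1.12). Ajuba (-0.75) and Amotl2 (-0.73), which bind regulators of YAP, fell as well. Srf itself went from 226 ± 45.2 to 153 ± 8.33 (-0.50 ± 0.13, adjusted p = 0.038, and 0.074 to 0.13 without CAG150 replicate 1, 2 or 3 or HM1 replicate 1 or 3). Srf also lost its call with a pseudocount of 1, the 6 arrays alone and the mean over its probe sets (adjusted p = 0.088, 0.11 and 0.078). The genes of YAP and its partners, Yap1 (-0.093 ± 0.085), Tead1 (-0.23 ± 0.10) and Tead2 (-0.45 ± 0.14), were not called.

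SRF binds a short sequence called the CArG box, a run of A and T bases between CC and GG. An exact match on either strand was found between 250 bases before and 50 bases after the start of 1.58% of the 14452 array genes with a RefSeq promoter window of the assembly GRCm38.p6. It was found for 5 of 24 contractile genes with a window. All 5 were called lower, as were 22 of the 29 measured members of that list. Of 11 SRF and YAP linked genes with a window 1 had a match, Srf itself, which has 2. The stretches are printed here because they hold the matches of the contractile genes that fell and of the SRF gene itself, with the match in capitals, read 5′ to 3′ on the strand of the gene.
Acta1, chr8:123894809-123894878, minus strand: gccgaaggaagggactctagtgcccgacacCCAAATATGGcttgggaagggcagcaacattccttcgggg
Actc1, chr2:114052883-114052952, minus strand: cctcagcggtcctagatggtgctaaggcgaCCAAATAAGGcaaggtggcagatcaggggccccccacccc
Cnn2, chr10:79988514-79988583, plus strand: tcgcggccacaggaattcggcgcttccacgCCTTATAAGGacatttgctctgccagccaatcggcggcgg
Myl9, chr2:156775273-156775342, plus strand: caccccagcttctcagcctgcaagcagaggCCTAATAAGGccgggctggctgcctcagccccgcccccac
Vcl, chr14:20929148-20929210, plus strand: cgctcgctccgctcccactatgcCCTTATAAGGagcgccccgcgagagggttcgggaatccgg
Srf, chr17:46556185-46556274, minus strand: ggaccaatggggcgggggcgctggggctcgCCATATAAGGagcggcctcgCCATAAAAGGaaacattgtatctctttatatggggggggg
The matches begin 73 bases before the start in Acta1, 47 in Actc1, 56 in Cnn2, 161 in Myl9 and 227 in Vcl, and 82 and 62 in Srf. The log2 differences of the 5 contractile genes lay between -3.10 in Actc1 and -1.08 in Vcl. Acta2, the gene of the largest contractile fall with a window, has no exact match in it, and a match is a description of the letters and not a binding site.

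Annexins and S100 proteins, calcium sensors that link membranes to actin, were lower in 10 of 15 cases and higher in 0 (median -1.01). Anxa2 had intensities of 315, 403 and 382 in HM1 and 31.4, 35.9 and 38.7 in CAG150 (7.43-fold lower, adjusted p = 1.9e-07). Its binding partner S100a10 went from 348, 329 and 476 to 59, 67.5 and 49.2, again without overlap (5.33-fold lower, adjusted p = 2.4e-06). Anxa3 (-2.82), Anxa6 (-1.45), Anxa5 (-0.99) and S100a6 (-1.32) fell too, as did Ahnak (-2.42), a giant scaffold that binds this annexin pair. Anxa4 (-0.20 ± 0.15), S100a1 (-0.13 ± 0.11) and S100a13 (-0.015 ± 0.15) were not called.

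Basement membrane genes were lower in 11 of 15 cases, with a median of -0.98 and 0 higher. Lamb1, a laminin chain, was at 483, 487 and 525 in HM1 and 164, 132 and 149 in CAG150 (3.15-fold lower, adjusted p = 1.4e-06). The laminin chains Lama1 (-1.38) and Lamc1 (-1.03), the linker nidogen Nid1 (-1.15), the collagens Col18a1 (-1.02), Col4a1 (-0.98) and Col4a2 (-0.78) and the collagen chaperone Serpinh1 (-0.86) fell with it. Perlecan, Hspg2 (-0.13 ± 0.19), and Agrn (0.022 ± 0.16), 2 other components of this sheet, were not called.

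In the wider matrix and adhesion list, 12 of 35 genes were lower and 0 higher (median -0.41), but the count was 7 without CAG150 replicate 3 or HM1 replicate 3. Timp3, an inhibitor of matrix proteases, fell from 85 ± 9.94 to 15.2 ± 3.97 (-1.70 ± 0.15). Sparc, a secreted collagen-binding protein, went from 2141, 1851 and 1841 to 807, 757 and 695 (2.55-fold lower, adjusted p = 7.7e-06). Col3a1 (-1.42), Postn (-1.09), the integrin Itga3 (-1.06) and the proteoglycan Vcan (-0.98) also fell. The integrins Itgb1 (0.092 ± 0.16) and Itgav (-0.15 ± 0.11) were not called.

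Genes of simple epithelia fell in 14 of 19 cases, and 0 rose (median -1.02). The keratin pair Krt8 and Krt18, which form filaments together, moved alike. Krt8 intensities were 472, 517 and 503 in HM1 and 68.7, 84.2 and 41.2 in CAG150 (6.52-fold lower, adjusted p = 2.7e-06). Krt18 was at 476, 576 and 588 in HM1 and 64.8, 74.9 and 62.8 in CAG150 (6.72-fold lower, adjusted p = 1.6e-07). Desmosome genes followed, Dsp from 108 ± 7.05 to 17.4 ± 3.38 and Pkp2 from 423 ± 26.5 to 118 ± 11.3. The adhesion proteins Epcam (-1.29) and E-cadherin, Cdh1 (-0.74), which stem cells also express, and the claudins Cldn4 (-1.11) and Cldn7 (-1.02) fell, Cldn4 without a call at a pseudocount of 1 (adjusted p = 0.055). Ocln, of tight junctions, was not called (-0.082 ± 0.19).

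Pluripotency genes were lower in 17 of 28 cases and higher in 0 (median -0.81). Pou5f1, the factor Oct4 that holds stem cells undifferentiated, had intensities of 318, 308 and 298 in HM1 and 87.4, 140.1 and 91.3 in CAG150 (2.7-fold lower, -1.43 ± 0.23, adjusted p = 0.0029). Nanog, its partner, went from 159.9 ± 18.4 to 83.6 ± 5.32 (-0.82 ± 0.12). Of the stem cell markers without a known role in the core network, Dppa5a fell from 1352 ± 174 to 511 ± 10.3, Utf1 from 181 ± 7.98 to 61.5 ± 3.76 and L1td1 from 240.1 ± 24.4 to 69.9 ± 12.8. The DNA methylation factors Dnmt3l (-1.39) and Dnmt3b (-1.03), the RNA-binding Lin28a (-0.84) and the Nodal pathway genes Tdgf1 (-1.07), Nodal (-0.90) and Lefty1 (-0.97) fell as well. Zfp42 (-0.45 ± 0.14), Klf2 (-0.12 ± 0.14) and Dppa3 (0.28 ± 0.16) were not called. The summed intensity of the 5 pluripotent cell markers was 2040 to 2360 in HM1 and 830 to 918 in CAG150.

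Among genes of visceral and primitive endoderm, 5 of 21 fell and 0 rose (median -0.16). These were the lipid carrier Apoe (338 ± 8.93 to 62.9 ± 6.75, -2.17), the uptake receptor Lrp2 (412 ± 14.5 to 114 ± 26.3, -1.73), its adaptor Dab2 (-1.17), Spink1 (-1.13) and Foxa2 (-0.79), which the floor plate of the neural tube also expresses. None of the 7 markers of visceral endoderm was called, Afp and Apoa1 were dim in both lines, and the summed intensity was 126 to 164 in HM1 and 106 to 123 in CAG150. The mesoderm and heart list had 1 member lower, the myosin Myh7 (69.2 ± 9.46 to 8.44 ± 6.92), and 2 of 21 higher, or 1 without CAG150 replicate 1 or 3 or HM1 replicate 1 or 3. Of these, Prrx1 rose from 17.8 ± 3.67 to 38.5 ± 4.77. Of the markers of other tissues, 3 of 4 for heart muscle and 4 of 6 for blood or endothelium were dim in both lines, with sums of 13.1 to 30.9 and 31.2 to 69.5 over the 6 arrays.

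**Figure D3:**
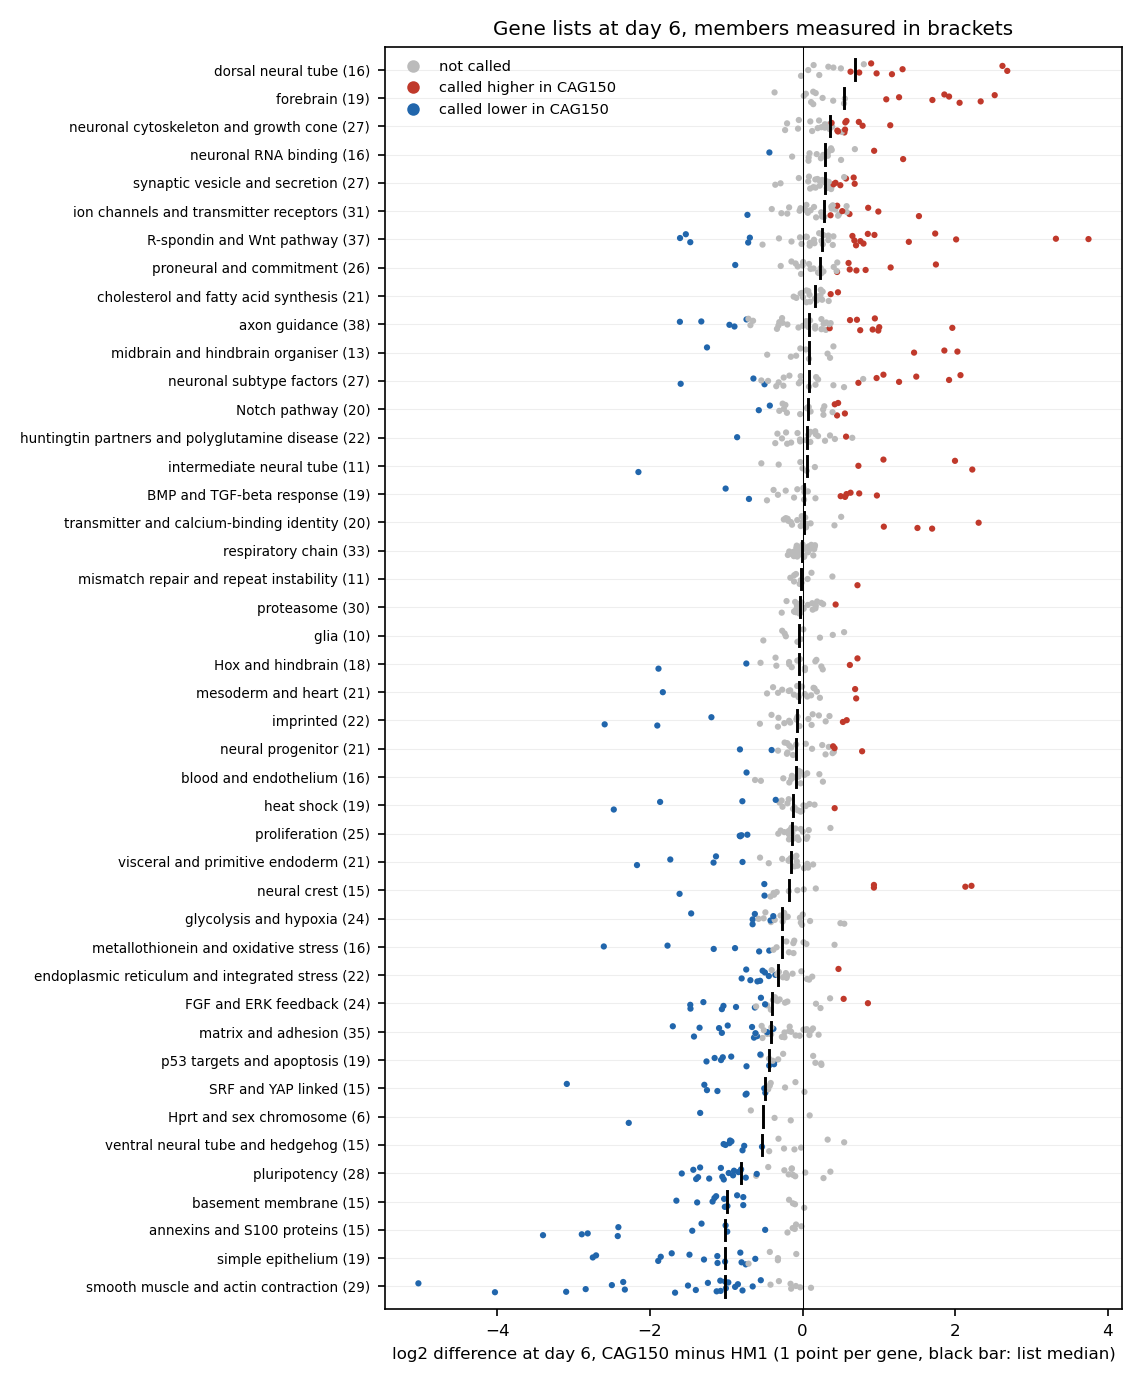
Differences between CAG150 and HM1 at day 6 (log2, horizontal axis) of the measured members of the 44 gene lists, 1 point per gene, ordered by the list median (black bar), with calls in red and blue. The lists of smooth muscle, epithelium, annexins, basement membrane and pluripotency lie lowest, with medians between -1.02 and -0.81, and those of the dorsal neural tube and forebrain highest, at 0.69 and 0.54.

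Regional factors of the neural tube differed along the dorsal to ventral axis. Dorsal genes rose in 8 of 16 cases and fell in 0 (median 0.69), while ventral and hedgehog genes fell in 8 of 15 and rose in 0 (median -0.53). Beside Msx3 and Zic1, Pax3 of the dorsal progenitors rose from 377, 335 and 434 to 1028, 813 and 1082 (2.48-fold, adjusted p = 0.00077). The roof plate factors Lmx1a (4.19 ± 2.12 to 29.8 ± 8.36) and Lmx1b (30.1 ± 8.75 to 73.5 ± 8.78) and Zic5 (0.90) rose too. Pax7 (0.50 ± 0.20), Zic2 (0.15 ± 0.20) and Wnt1 (0.41 ± 0.24), also dorsal, were not called.

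On the ventral side, Ptch1, the hedgehog receptor that is itself switched on by the signal, had intensities of 1461, 1151 and 1345 in HM1 and 659, 687 and 697 in CAG150 (1.91-fold lower, adjusted p = 0.00024). The ligand Shh was at 59.5, 55.3 and 72.1 in HM1 and 32.4, 15.5 and 27.1 in CAG150, low in both lines and lower in CAG150 (-0.95 ± 0.16, adjusted p = 0.0034). Netrin, Ntn1, which the floor plate secretes to guide axons, fell from 899 ± 94.8 to 458 ± 80.001. The floor plate factor Foxa2 fell (-0.79), and the ventral progenitor factors Nkx6-1 (-1.01) and Nkx6-2 (-1.03) did as well, the last from 25.6 ± 1.09 to 4.55 ± 3.79, below the dim level defined above. Both lost their calls with a pseudocount of 1 (adjusted p = 0.056 and 0.076). The signal transducers Smo (-0.31 ± 0.14) and Gli2 (-0.24 ± 0.12) were not called.

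The intermediate list held changes in both directions, 4 of 11 higher and 1 lower. Ptf1a, which makes inhibitory dorsal neurons, rose from 9.45 ± 2 to 87.6 ± 26.9 together with Gsx1. Dbx1, a factor of progenitors at the middle of the tube, had the opposite change, with 2134, 1761 and 1947 in HM1 and 404, 463 and 410.3 in CAG150 (4.44-fold lower, adjusted p = 8e-07). The count of higher members was 2 without CAG150 replicate 3, and that of lower members 2 without HM1 replicate 2. Irx3 (0.16 ± 0.090) and Lhx1 (-0.31 ± 0.15) were not called.

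From front to back, forebrain genes rose in 8 of 19 cases and fell in 0 (median 0.54). Otx2, a homeobox factor of the forebrain and midbrain, had intensities of 79.2, 131 and 95.1 in HM1 and 355, 393 and 475 in CAG150 (3.63-fold, adjusted p = 1.8e-05). Lhx9 (18.8 ± 4.1 to 117 ± 28.3), Emx2 (8.85 ± 4.6 to 64.9 ± 16.3) and Lhx2 (72 ± 6.54 to 195 ± 12.6), factors of the cortex and diencephalon, rose alongside Dmrta2, Dmrt3 and Otx1. Six3 (0.17 ± 0.15), Tcf7l2 (0.14 ± 0.15) and Fezf2 (0.55 ± 0.19) were not called. At the border of midbrain and hindbrain, 3 of 13 listed genes rose and 1 fell (median 0.085). Otx2, which is also in this list, rose, as did Mab21l2 (69.9 ± 12 to 337 ± 71.1) and Mab21l1 (1.46). Sp8 fell from 519, 490.5 and 548 to 234, 240 and 161 (2.38-fold, adjusted p = 0.00011). En1 (0.085 ± 0.17), En2 (0.36 ± 0.17) and Gbx2 (0.33 ± 0.11), other genes of this border, were not called.

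Hox and hindbrain genes had 2 of 18 members higher and 2 lower (median -0.050). Meis1, a Hox cofactor on chromosome 11, rose from 537 ± 54.1 to 893 ± 26.3. Egr2, which marks rhombomeres of the hindbrain, fell from 109, 88.3 and 51 to 12.8, 12.9 and 4.65 (-1.89 ± 0.24, adjusted p = 0.00044). The other higher member, Hoxb1, also on chromosome 11, had adjusted p = 0.024, and 0.061 to 0.098 without CAG150 replicate 1 or 3 or HM1 replicate 2 or 3. Hoxb1 also lost its call with a pseudocount of 1 (adjusted p = 0.52). Hoxa2 (0.032 ± 0.10) and Hoxb2 (-0.17 ± 0.14) were not called. The number of higher members was 1 without CAG150 replicate 1 or 3 or HM1 replicate 2 or 3.

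Genes of the R-spondin and Wnt pathway rose in 12 of 37 cases and fell in 5 (median 0.26). Among ligands and activators, Rspo1 rose from 19.2 ± 7.12 to 125 ± 21.1, Wnt8b from 5.26 ± 4.11 to 54.4 ± 7.38, Wnt5a from 16.8 ± 3.63 to 46.9 ± 3.43 and Wnt7b from 209.7 ± 44.5 to 387 ± 3.19. Wnt7a went the other way, from 276, 206 and 284 to 91.8, 80.8 and 61.4 (2.89-fold lower, adjusted p = 0.00036). Of receptors, the R-spondin receptor Lgr5 (0.76) rose, Fzd7 fell from 1471 ± 64.4 to 521 ± 41.7, and Lgr4 (-0.14 ± 0.14) and Fzd3 (0.10 ± 0.10) were not called. Targets and feedback genes of the pathway that rose were Lef1, a nuclear effector (32.3, 44.7 and 38.3 in HM1 and 99.3, 126 and 161 in CAG150, 2.63-fold, adjusted p = 0.00043), Axin2 on chromosome 11 (0.70) and Nkd1 on chromosome 8 (0.68). Nkd1 lost its call with the mean over its probe sets (adjusted p = 0.075). The secreted inhibitors Sfrp1 (560 ± 85.9 to 173 ± 29.1) and Sfrp2 (2903 ± 173 to 1792 ± 65.1) fell, Sfrp1 although it lies on chromosome 8.

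In the BMP and TGF-beta list, 6 of 19 genes rose and 2 fell (median 0.021). Id3, a direct target of BMP signals that blocks differentiation factors, had intensities of 463, 546 and 559.9 in HM1 and 1002, 1036 and 1085 in CAG150 (1.97-fold, adjusted p = 0.00068). Its relative Id1 rose from 139.5 ± 13.7 to 213 ± 13.8, and Id4 (-0.32 ± 0.10) and the feedback inhibitor Bambi (-0.47 ± 0.14) were not called. The ligand Tgfb2 fell from 50.2 ± 7.87 to 16.8 ± 2.29, and the other lower member was the ligand Bmp4. The count of lower members was 1 without CAG150 replicate 1 or 2 or HM1 replicate 1 or 3.

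FGF and ERK feedback genes fell in 9 of 24 cases (median -0.40). Dusp6, a phosphatase induced by ERK that shuts it off, had intensities of 384, 427 and 351 in HM1 and 184, 175 and 173 in CAG150 (2.08-fold lower, adjusted p = 0.00029). The immediate early genes Egr1 (258 ± 27.6 to 82.7 ± 3.68) and Fos (98 ± 15.3 to 30.2 ± 5.44), and the FGF carrier Fgfbp1 (60.8 ± 15.1 to 11.4 ± 2.87) fell with it. The ETS factor Etv5 differed by -0.62 ± 0.13 (adjusted p = 0.013, and 0.05 to 0.051 without CAG150 replicate 2 or HM1 replicate 2). The inhibitor Spry2 differed by -0.54 ± 0.11 by its brightest probe set (adjusted p = 0.0098), but lost its call with the mean over its probe sets (adjusted p = 0.45). The receptor Fgfr2 rose from 412, 379.8 and 415 to 726, 769 and 728 (1.81-fold, adjusted p = 0.00024). It was 1 of 2 higher members, a count that was 1 without CAG150 replicate 2 or 3 or HM1 replicate 1, 2 or 3. The receptor Fgfr1 (0.18 ± 0.11) was not called.

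Notch pathway genes had 4 of 20 members higher and 2 lower, and both counts fell whichever of the 6 arrays was left out. With all arrays kept, the higher count was 0 with median centring and with a pseudocount of 1. The higher count was 0 without CAG150 replicate 3 or HM1 replicate 2 and 1 without CAG150 replicate 1 or HM1 replicate 1 or 3, and the lower count 0 without CAG150 replicate 2 or 3 or HM1 replicate 1 or 3 and 1 without CAG150 replicate 1 or HM1 replicate 2. Dll1, the ligand on newborn neurons, was at 675, 592 and 628 in HM1 and 879.9, 792 and 943 in CAG150 (0.45 ± 0.11, adjusted p = 0.032, and 0.086 to 0.12 without CAG150 replicate 1 or 3 or HM1 replicate 2 or 3). Dll1 also lost its call with median centring, a pseudocount of 1 and the 6 arrays alone (adjusted p = 0.097, 0.083 and 0.068). The target Hes5 (0.39 ± 0.14) and the receptor Notch3 (-0.22 ± 0.15) were not called.

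General markers of neural progenitors changed in both directions, where 4.13% of all genes were higher and 5.16% lower. Of 21 genes, 3 were higher and 2 lower (median -0.083), with 1 without CAG150 replicate 2 or 3 or HM1 replicate 1, 2 or 3 in the first count and 1 without CAG150 replicate 1, 2 or 3 or HM1 replicate 1, 2 or 3 in the second. Ncan, the proteoglycan neurocan on chromosome 8, rose from 216 ± 23.5 to 382 ± 27.8, and Pou3f1, a POU factor of the early neural plate, fell from 148, 178 and 194 to 99.7, 77.5 and 96.3 (1.77-fold, adjusted p = 0.0034). Pax6, a progenitor factor of the forebrain and intermediate neural tube, was at 995, 1061 and 1057 in HM1 and 815, 818 and 711 in CAG150 (-0.40 ± 0.10, adjusted p = 0.032, and 0.055 to 0.13 without CAG150 replicate 1, 2 or 3 or HM1 replicate 1, 2 or 3). Pax6 also lost its call with a pseudocount of 1 and the 6 arrays alone (adjusted p = 0.08 and 0.077). Nes, the filament nestin, was at 449, 359 and 456 in HM1 and 312, 334 and 351 in CAG150, which overlap, and was not called (-0.32 ± 0.14, adjusted p = 0.23). The summed intensity of the 6 progenitor markers was 12400 to 13000 in HM1 and 14200 to 14600 in CAG150, and 1 of them, Pax6, was called.

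Factors that commit progenitors to neurons rose in 7 of 26 cases and fell in 1 (median 0.23), or rose in 4 without CAG150 replicate 3 or HM1 replicate 2. The proneural pair Neurog2 and Neurog1 moved in opposite directions. Neurog2 had intensities of 78.7, 68.4 and 82.8 in HM1 and 298, 236 and 362 in CAG150 (3.36-fold higher, adjusted p = 2.7e-05). Neurog1 was at 483, 403 and 545 in HM1 and 215, 289 and 250.4 in CAG150 (1.84-fold lower, adjusted p = 0.0078). Neurog1 lost its call with a pseudocount of 1 (adjusted p = 0.063). The later factors Myt1 (61.8 ± 20.3 to 154 ± 21.3), Ebf3 (0.83) and Nhlh2 (0.60) rose, and Sox11 (0.46 ± 0.16) and Sox4 (0.009 ± 0.11) were not called.

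Genes of the neuronal cytoskeleton and growth cone rose in 10 of 27 cases and fell in 0 (median 0.35), with 5 without CAG150 replicate 3 and 6 without HM1 replicate 2. Mapt, the axonal protein tau on chromosome 11, was at 241, 184 and 154 in HM1 and 441, 443 and 440.1 in CAG150 (2.22-fold higher, adjusted p = 0.00019). Map2, its counterpart in dendrites, went from 941, 804 and 821 to 1536, 1434 and 1486 (1.73-fold higher, adjusted p = 0.00036). Stmn4 (0.74), Gap43 (0.56) and Crmp1 (0.55), proteins of growing axons, rose by smaller amounts. Dpysl3, another such protein, differed by 0.46 ± 0.11 (adjusted p = 0.025, and 0.051 to 0.087 without CAG150 replicate 1, 2 or 3 or HM1 replicate 1 or 2), and lost its call with median centring and a pseudocount of 1 (adjusted p = 0.075 and 0.071) too. Tubb3, on chromosome 8, was at 2261, 1788 and 2144 in HM1 and 2634, 3512 and 3129 in CAG150 (0.58 ± 0.14, adjusted p = 0.03, and 0.065 to 0.11 without CAG150 replicate 2 or 3 or HM1 replicate 2 or 3). Tubb3 also lost its call with a pseudocount of 1 and the 6 arrays alone (adjusted p = 0.086 and 0.073). Tubb2b (0.10 ± 0.12), Dpysl2 (0.13 ± 0.10) and the neurofilament Nefl (0.29 ± 0.11) were not called. Of the 7 neuron markers, 6 were higher, and their sum was 5750 to 6850 in HM1 and 8850 to 9720 in CAG150. The seventh, Rbfox3, on chromosome 11, differed by 0.69 ± 0.22 (adjusted p = 0.083).

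Synaptic and secretory genes rose in 6 of 27 cases (median 0.29), a count that was 2 without HM1 replicate 2 and 3 without CAG150 replicate 1 or 3 or HM1 replicate 3. Scg5, a chaperone of secretory granules, rose from 109 ± 18.5 to 184 ± 12.5. Syt1, the calcium sensor of vesicle release, was at 165, 132 and 147 in HM1 and 239, 215 and 227 in CAG150 (0.57 ± 0.12, adjusted p = 0.014, and 0.051 to 0.059 without CAG150 replicate 1 or 3 or HM1 replicate 2). Syt1 also lost its call with a pseudocount of 1 (adjusted p = 0.056). Rab3a (0.23 ± 0.16) and Nsf (0.34 ± 0.14) were not called. RNA-binding proteins of neurons had 2 higher and 1 lower of 16, with 1 without CAG150 replicate 1 or 2 or HM1 replicate 2 or 3 in the first count and 0 without CAG150 replicate 1 or 3 or HM1 replicate 1 or 3 in the second. Celf4, which controls messages of synaptic proteins, rose from 102 ± 6.33 to 284 ± 70.8, and Elavl2 (-0.14 ± 0.16) and Ptbp2 (0.34 ± 0.10) were not called.

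Markers of transmitter type rose in 4 of 20 cases and fell in 0 (median 0.021). Slc17a6 intensities were 16.4, 15.5 and 35.5 in HM1 and 196, 130.2 and 191 in CAG150. Calbindin, Calb1, went from 17.7, 22.3 and 22 to 113, 79.4 and 121 (3.25-fold higher, adjusted p = 3.4e-05). Calretinin, Calb2, on chromosome 8, rose 2.84-fold, from 62.4 ± 11.3 to 206 ± 21.4. Calb2 lost its call with a pseudocount of 1 (adjusted p = 0.12). Ddc (-0.024 ± 0.13) and Slc18a2 (0.006 ± 0.26), needed for monoamines, were not called. Ion channels and receptors rose in 7 of 31 cases and fell in 1, with a higher count of 3 without CAG150 replicate 3 or HM1 replicate 1 or 2 and 4 without CAG150 replicate 1. Cacna2d1, a calcium channel subunit, rose from 72 ± 6.94 to 239 ± 39.6, the glutamate receptor Gria3 from 21.5 ± 4.29 to 58.7 ± 7.88, and the sodium channel subunit Scn3b by 0.45. The acetylcholine receptor Chrna3 fell from 94.9 ± 8.33 to 51.2 ± 2.95.

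Axon guidance genes changed in both directions, with 9 of 38 higher and 5 lower (median 0.087). Epha3, a receptor of ephrins, had intensities of 128, 104 and 142 in HM1 and 593, 457 and 546 in CAG150 (3.9-fold higher, adjusted p = 2.2e-06). The netrin receptors Dcc (579.7 ± 35.6 to 1111 ± 72.2) and Unc5c (62.7 ± 11.8 to 136 ± 21) rose, while netrin itself, Ntn1, fell. Of the repellents, Slit2 (0.71) rose and Slit3 (-0.73) fell. Sema3c (319 ± 48 to 93.4 ± 6.66) and Sema3e (65.2 ± 15.5 to 16 ± 1.37), secreted semaphorins, fell, and Robo1 (0.37 ± 0.12), Epha4 (-0.053 ± 0.11) and Epha7 (0.074 ± 0.11) were not called.

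Factors of neuronal subtypes rose in 7 of 27 cases and fell in 3 (median 0.085). Pou4f1, of sensory and dorsal midbrain neurons, went from 76.6, 52.2 and 63.2 to 241, 182 and 202 (2.81-fold higher, adjusted p = 0.0001). Isl1, of motor neurons and other ventral and sensory neurons, went from 367, 352 and 335 to 119.8, 107 and 90.8 (3.03-fold lower, adjusted p = 1.8e-05). Lmo4 fell (-0.64), and Lhx5 (-0.54 ± 0.16) and Phox2a (0.18 ± 0.18) were not called.

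Neural crest factors had 4 of 15 members higher and 3 lower, the lower count being 1 without CAG150 replicate 3. Tfap2b had intensities of 91, 80.3 and 128 in HM1 and 512, 464 and 569 in CAG150, and Tfap2a of 30.5, 37 and 38.8 in HM1 and 240, 179 and 213 in CAG150, both with adjusted p-values below 0.001 (4.5e-06 and 8.8e-06). Tfap2c (0.94) and Sox9 (0.94), the latter on chromosome 11, rose, and Ets1 fell from 126 ± 18.9 to 30.2 ± 3.43. The markers Sox10 (16.4 ± 8.57 in HM1 and 20.03 ± 5.84 in CAG150), Foxd3 (12.7 ± 3.1 and 6.14 ± 3.13) and Snai2 (38.1 ± 13.9 and 38.9 ± 15.6), which define crest cells, were low in both lines and not called. Their sum with Tfap2a was 85.7 to 121 in HM1 and 230.0 to 318 in CAG150. None of the 10 glial genes was called, or 1 without CAG150 replicate 2, and Gfap, of astrocytes, was dim in both lines.

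Imprinted genes, of which only the copy from a single parent is expressed, included 3 large falls among 22 measured. Grb10, an adaptor that restrains growth, had intensities of 1688, 1807 and 1599 in HM1 and 272, 254 and 278 in CAG150 (6.03-fold lower, adjusted p = 4.8e-07), although it lies on chromosome 11. Cdkn1c, an inhibitor of the cell cycle, went from 2532, 2449.5 and 2723 to 641, 651 and 735 (3.74-fold lower, adjusted p = 1.1e-06). Phlda2, its neighbour on chromosome 7, fell from 44.4 ± 8.69 to 10.3 ± 2.77. Ndn, necdin, a regulator of neuronal growth, rose from 2694 ± 67.5 to 4036 ± 224, and it was 1 of 2 higher members, or 1 without CAG150 replicate 1 or 3 or HM1 replicate 1, 2 or 3. Mest (-0.18 ± 0.11), Nnat (-0.078 ± 0.17) and Plagl1 (-0.065 ± 0.12) were not called.

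Several G1 cyclins and p53 targets were lower in CAG150. Of 25 proliferation genes, 4 fell and 0 rose (median -0.14), and all of those that fell were G1 cyclins. Ccnd2 had intensities of 3082, 3210 and 3173 in HM1 and 1678, 1822 and 1834 in CAG150 (1.77-fold lower, adjusted p = 0.00029). Ccnd1 (1487 ± 76.8 to 837 ± 22.2) and Ccnd3 (661 ± 87.6 to 373 ± 44.5) fell by like amounts, and Ccne1 differed by -0.72 (adjusted p = 0.04, and 0.11 to 0.14 without CAG150 replicate 1 or 2 or HM1 replicate 2 or 3). Ccne1 also lost its call with a pseudocount of 1 and the 6 arrays alone (adjusted p = 0.1 and 0.11). Replication genes such as Pcna (-0.16 ± 0.10), Mcm7 (-0.29 ± 0.12) and Rrm2 (-0.093 ± 0.090) were not called. In the p53 list, 10 of 19 genes fell and 0 rose (median -0.44), or 6 without CAG150 replicate 3 or HM1 replicate 2 or 3. The cell cycle inhibitor p21, Cdkn1a, went from 1196, 1174 and 1389 to 453, 548 and 543 (2.39-fold lower, adjusted p = 7.5e-05), and its other probe set, at 334 in HM1 and 206 in CAG150, missed the call (adjusted p = 0.051). Perp (-1.15), Phlda3 (-1.04) and the cell death gene Bbc3 (-0.73) fell, and Mcl1 (-0.32 ± 0.11) and Zmat3 (-0.25 ± 0.091) were not called.

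Genes of the integrated stress response, which the factor ATF4 switches on when amino acids are short or proteins misfold, had more falls than rises. With those of the endoplasmic reticulum, 9 of 22 fell and 1 rose (median -0.32). The lower count was 5 without CAG150 replicate 1 or HM1 replicate 1 or 3, and the higher count 0 without CAG150 replicate 1 or 3 or HM1 replicate 1 or 3. Atf4 had intensities of 1411, 1512 and 1556 in HM1 and 1009, 1068 and 955 in CAG150 (1.47-fold lower, adjusted p = 0.0052). Its targets Asns, which makes asparagine (1875 ± 87.8 to 1239.5 ± 65.8), Chac1, which degrades glutathione (137 ± 10.6 to 72.2 ± 4.24), and Atf5 (-0.68) fell as well. Phgdh, an enzyme of serine synthesis, differed by -0.49 ± 0.11 (adjusted p = 0.022, and 0.051 to 0.086 without CAG150 replicate 1 or 3 or HM1 replicate 1 or 3), and lost its call with a pseudocount of 1 and the 6 arrays alone (adjusted p = 0.062 and 0.06) too. The chaperones Hspa5 (-0.20 ± 0.10), Calr (0.086 ± 0.13) and Canx (0.060 ± 0.090), which respond to misfolded proteins through other factors, were not called.

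ATF4 acts through paired elements whose core can be written TGATGNAA. This string, on either strand, was found in the promoter windows of 3.24% of array genes and of 4 of 22 genes in this list, Asns, Chac1, Trib3 and Herpud1, the last of which was not called (0.13 ± 0.12). Trib3 was at adjusted p = 0.025, and 0.06 to 0.096 without CAG150 replicate 1 or 2 or HM1 replicate 1 or 3. Trib3 also lost its call with a pseudocount of 1 and the 6 arrays alone (adjusted p = 0.058 and 0.064). The stretches of the members that fell and whose match lies before the start are shown, with the match in capitals.
Asns, chr6:7693210-7693262, minus strand: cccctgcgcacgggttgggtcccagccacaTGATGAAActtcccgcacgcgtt
Chac1, chr2:119351019-119351086, plus strand: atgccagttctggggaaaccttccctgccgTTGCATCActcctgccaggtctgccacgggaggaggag
The match begins 23 bases before the start in Asns and 193 in Chac1, where it lies on the opposite strand.

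Small heat shock proteins and metallothioneins had larger falls. Cryab, the crystallin that guards filaments, went from 265, 262 and 332 to 37.5, 41.1 and 35.9 (5.55-fold lower, adjusted p = 3.8e-07). Hspb1, its relative, fell from 395 ± 65.5 to 96.8 ± 18.3. The heat shock list as a whole had 4 of 19 lower and 1 higher, with 2 without CAG150 replicate 2 or HM1 replicate 1 in the first count and 0 without CAG150 replicate 1, 2 or 3 or HM1 replicate 1 or 3 in the second, and Hsp90aa1 (-0.26 ± 0.11) and Hspa8 (-0.20 ± 0.12) were not called. Mt1, which binds zinc and copper, had intensities of 1232, 1404 and 1337 in HM1 and 184, 238 and 194 in CAG150 (6.08-fold lower, adjusted p = 1.6e-07), and Mt2 beside it on chromosome 8 fell from 1975 ± 362 to 565 ± 73.5. The glutathione genes Gsta4 (1533 ± 101 to 677 ± 66.9), Gstm1 (-0.88) and Gclm (-0.57) fell, which makes 6 of 16 lower and 0 higher in this list. Sod1 (-0.12 ± 0.10) and Gpx4 (-0.38 ± 0.11) were not called.

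In glycolysis and hypoxia, 6 of 24 genes fell and 0 rose, or 1 without HM1 replicate 1. The glucose transporter Slc2a3 went from 2254, 2293 and 2114 to 839, 745 and 809 (2.75-fold lower, adjusted p = 2.1e-05), and Slc2a1 from 3336 ± 84.2 to 2158 ± 52.2. Ldha (-0.36 ± 0.15), Pgk1 (-0.29 ± 0.10) and Pkm (-0.26 ± 0.11) were not called. None of the 33 respiratory chain genes was called, with 0 higher and 0 lower (median -0.001). Of 30 proteasome genes 1 was called, and 0 with any of the 6 arrays left out. The cholesterol and fatty acid list had 2 of 21 higher, or 0 without CAG150 replicate 3 or HM1 replicate 1 and 1 without CAG150 replicate 1 or 2 or HM1 replicate 2 or 3.

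Htt, the gene that carries the repeat, was lower in CAG150 by its main probe set. The intensities were 148, 107 and 140 in HM1 and 58, 70.9 and 66.3 in CAG150, without overlap (-0.86 ± 0.13, 1.81-fold, adjusted p = 0.0016), and the call was kept with each array left out. The other 3 probe sets of Htt were not called, with differences of -0.39 ± 0.28, 0.27 ± 0.19 and 0.055 ± 0.15 (adjusted p = 0.5, 0.47 and 0.89). The mean over its 4 probe sets did not pass either, with a difference of -0.23 and an adjusted p of 0.32. Among 22 partners of huntingtin and genes of other polyglutamine diseases, 1 other was called. Ntrk2, the receptor of the growth factor BDNF, rose from 124, 128 and 113 to 177, 189 and 199 (1.49-fold, adjusted p = 0.0068). Sp1 (-0.22 ± 0.11), Sin3a (-0.065 ± 0.12) and Crebbp (-0.033 ± 0.12), regulators of transcription that bind huntingtin, were not called. Of 11 genes of mismatch repair and repeat instability, 1 was higher, or 0 without CAG150 replicate 2 or 3 or HM1 replicate 2 or 3. Msh6 (-0.16 ± 0.085), Fen1 (-0.013 ± 0.12) and Lig1 (-0.11 ± 0.11) were not called.

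Hprt, whose function HM1 lacks, was low in both lines, at 19.1, 27.6 and 26.4 in HM1 and 19.96, 24.9 and 16.1 in CAG150 (-0.15 ± 0.14, not called). Of the Y-linked genes, Eif2s3y went from 166, 185 and 205 to 32.4, 24.3 and 20.3 (4.85-fold lower, adjusted p = 1.5e-06), and Uty from 65.5, 79 and 42.1 to 17, 12 and 13.9 (-1.34 ± 0.16, adjusted p = 0.00029). Kdm5d, also on the Y chromosome, was dim at 8.8 ± 2.8 and 3.28 ± 2.56 and not called. Xist, the RNA that silences an X chromosome in female cells, was at 30.6 ± 8.39 in HM1 and 13 ± 4.11 in CAG150 and was not called (-0.68 ± 0.22).

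Many of the rises lay on a pair of chromosomes. The median difference was 0.18 over the 932 genes of chromosome 8 and 0.15 over the 1443 genes of chromosome 11, against -0.054 to -0.014 for the other 17 autosomes. Chromosome 8 had 14.9% of its genes higher and chromosome 11 had 12.3%, against 1.41% to 3.83% on the other autosomes. Together they held 316 of the 752 higher genes, 18 of which rose at least 2-fold. Lower genes were 60 on these chromosomes. The listed genes named above as lying there, such as Mapt, Otx1, Axin2, Calb2, Ncan, Meis1 and Sox9, moved within a chromosome that was higher as a whole, and the part of this shift in their rises was not tested. The dorsal and forebrain lists hold 1 and 1 genes from these chromosomes, of which 0 and 1 rose. Without chromosome 8, 11 and Y genes, 396 genes were higher.

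**Figure D4:**
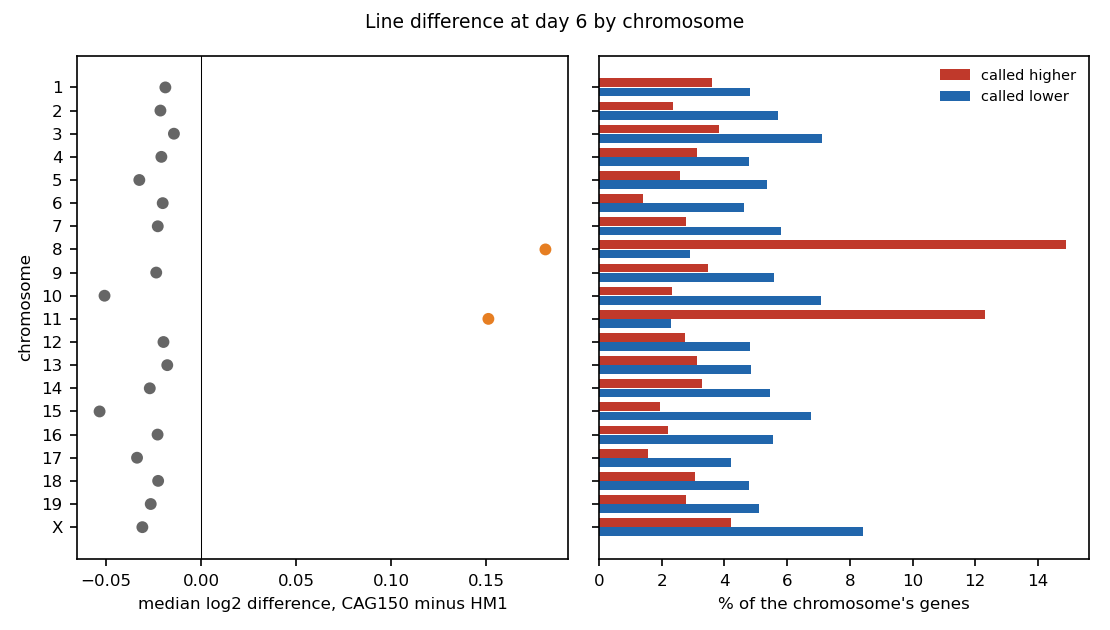
Line difference at day 6 by chromosome, as the median log2 difference of its genes (left, chromosomes 8 and 11 in orange) and as the percentage of its genes called higher (red) or lower (blue) in CAG150 (right). The medians of chromosomes 8 and 11 are 0.18 and 0.15, and no other chromosome shown has a median above 0.

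The line difference at day 6 was set beside that at day 4, when 474 genes were higher in CAG150 (2.61%) and 619 were lower (3.4%). Of the 752 genes higher at day 6, 192 (25.5%) were also higher at day 4 and 11 were lower then. Of the 939 genes lower at day 6, 371 (39.5%) were also lower at day 4 and 8 were higher then. The day 4 arrays are separate samples of the same lines. Over the 307 genes that changed at least 2-fold at day 6, 281 had a difference of the same sign at day 4, and for 253 the difference was larger at day 6, the day on which they were chosen. A test of the line difference at day 6 minus that at day 4 called 181 genes (0.995%), 78 with an upward and 103 with a downward change. These are signs of the change, and a downward change includes a fall that was larger at day 6, as in Acta2. Tagln had differences of -4.13 at day 4 and -5.03 at day 6, which did not differ by this test (adjusted p = 0.056), while Acta2, at -2.61 and -4.03, did (adjusted p = 0.0029).

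Several lists looked different at day 4. The forebrain genes had 5 higher and 2 lower at day 4 (median 0.26), the dorsal genes 5 and 2 (median 0.001), and the cytoskeleton genes 3 and 3 (median 0.12). Pluripotency genes had 0 and 18 (median -0.80), and contractile genes 1 and 19 (median -0.87). The differences between the days of whole lists were not tested. Stmn2, a regulator of microtubules in growing axons, turned from a difference of -1.77 at day 4 (2108 ± 101 in HM1, 607 ± 56.8 in CAG150) to 0.38 at day 6 (2064 ± 143 and 2691 ± 102). The change between the days was 2.15 ± 0.14 (adjusted p = 4e-05), and the rise at day 6 had adjusted p = 0.043, and 0.063 to 0.13 without CAG150 replicate 1, 2 or 3 or HM1 replicate 1, 2 or 3. Stmn2 also lost its call with median centring, a pseudocount of 1, the 6 arrays alone, a replicate block and the genes of chromosomes 8, 11 and Y left out (adjusted p = 0.11, 0.099, 0.087, 0.066 and 0.051). Dbx1 turned the other way, from 0.73 at day 4 to -2.15 at day 6 (change -2.88 ± 0.17, adjusted p = 2.9e-05).

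**Figure D5:**
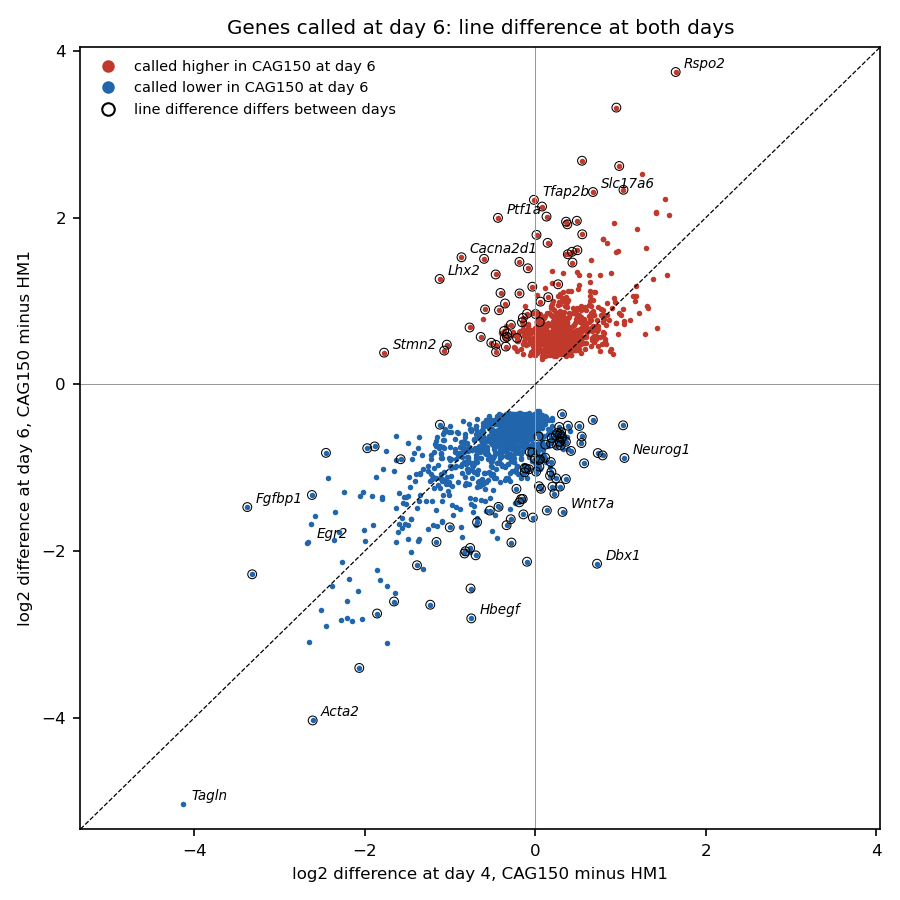
Log2 difference between CAG150 and HM1 at day 4 (horizontal axis) and day 6 (vertical axis) of the 752 genes called higher (red) and 939 called lower (blue) at day 6, with genes whose difference changed between the days circled and points of equal difference on the dashed line. Acta2, Dbx1, Rspo2 and Stmn2 are among the circled genes, and Tagln, farthest down at both days, is not.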

How the data were processed

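The deposited table holds intensities on a linear scale for 45101 probe sets on 12 arrays, which the authors had scaled to a mean of 150 per array without the highest and lowest 2%, as the values themselves show. What software made the intensities was not given in the sources used here. The 64 control probe sets were left out. The annotation given with the table gave 1 symbol to 34945 probe sets, several to 932 and none to 9160.

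Intensities were transformed as log2(intensity + 16) without a filter, and limma 3.58.1 (R 4.3.3) fitted 4 group means to the 12 arrays (8 residual and 4.2 prior degrees of freedom, eBayes), with Benjamini-Hochberg adjustment over 45037 probe sets and a call at an adjusted p under 0.05. The number of arrays limits the precision. Tested on simulated data of this comparison with 45037 probe sets, the fit called 85 of 100 changes of 1 on the log2 scale, 8 of 100 changes of 0.5 and 4 of 44837 unchanged probe sets. No other probe sets were changed in the simulation, while 3115 were called in the data. The adjustment is stricter where fewer probe sets change, so these shares are not detection rates for the data.

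The comparison and the 44 gene lists (966 genes, 904 measured) were chosen with earlier results of these data known, and lists were described by counts and medians, without a test. Named are Htt, Hprt, Tubb3, Pou5f1, Nes and Pax6, the 12 largest rises and falls among called genes without overlap between the lines, up to 6 called members of a list in its main direction, up to 3 in the other and up to 3 uncalled members with the highest level, the markers with the highest level, and the Hprt and sex chromosome list. A single gene of the 12 falls appears by name only in the figures. Further genes were chosen after their values were seen, namely Acta1, Actn1, Anxa5, Axin2, Cald1, Cdh1, Cldn4, Cldn7, Col18a1, Col4a1, Col4a2, Crmp1, Dnmt3b, Dpysl3, Epcam, Etv5, Flna, Herpud1, Lefty1, Lgr5, Lin28a, Myh9, Nkd1, Nodal, Phgdh, S100a6, Serpinh1, Sfrp2, Slit2, Slit3, Spry2, Srf, Tdgf1, Vcl and Wnt7b.

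Promoter windows of the assembly GRCm38.p6 are RefSeq's, and 14452 array genes matched one by symbol. The windows gave the motif counts on both strands. Among listed genes, the CArG box was looked up in the contractile and SRF lists only, and TGATGNAA in the stress list only. Matches of both motifs in the same gene were therefore not looked for. The alternatives were other normalizations, pseudocounts and filters, the 6 arrays alone, another prior, a replicate block, averaging the probe sets of each gene, genes outside chromosomes 8, 11 and Y, and 1 array left out.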

Additional observations from a re-analysis of the deposited data

Results flagged for a closer look

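For 59 of the 289 named genes the line difference (CAG150 minus HM1, log2) changed between day 4 and day 6 by limma's test. The threshold was an adjusted p under 0.05 over all probe sets, and 181 of all 18193 genes (0.995%) passed it. Many of the named genes were chosen for their difference at day 6, which is part of this change. A larger share among the named genes was therefore built in and says nothing further about them. The values below are the difference at day 6 minus that at day 4, and the day 4 arrays are other samples of the same lines. No explanation was weighed.

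Genes that rose at day 6 and moved upward between the days included several of the largest rises. Those were named for their day 6 difference, which is part of this change, so the overlap was built in by the choice. The R-spondins Rspo3, Rspo2 and Rspo1 moved by 2.37, 2.10 and 1.88, and the Wnt effector Lef1 by 1.48. The dorsal factors Msx3, Zic1, Zic5, Lmx1b and Lmx1a moved by 2.13, 1.64, 1.49, 1.32 and 1.21, and Ptf1a of inhibitory dorsal neurons by 2.44. Tfap2b and Tfap2a, which were not called at day 4 (-0.015 and 0.080), moved by 2.23 and 2.05. For the anterior factors Lhx2, Lhx9, Dmrta2 and Mab21l1 the change was 2.39, 1.54, 1.30 and 1.03. Lhx2 was lower in CAG150 at day 4 (-1.12) and higher at day 6 (1.27).

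Neuronal genes with an upward change were Cacna2d1 (2.39), Stmn2 (2.15), Calb2 (2.11), Slc17a6 (1.63), Calb1 (1.55), Epha3 (1.48), Syt1 (1.21), Ntrk2 (0.90) and Scn3b (0.80). Of these, Cacna2d1, Stmn2, Syt1 and Scn3b were called lower at day 4 and higher at day 6. The rises of Syt1 and Stmn2 at day 6 missed the threshold with an array left out, Syt1 with adjusted p = 0.051 to 0.059 without CAG150 replicate 1 or 3 or HM1 replicate 2, and Stmn2 with 0.063 to 0.13 without CAG150 replicate 1, 2 or 3 or HM1 replicate 1, 2 or 3. The BMP target Id1 changed by 0.77. Some genes were lower at both days but less so at day 6, namely Fgfbp1 (1.91), Sema3e (1.29), Cdh1 (1.14) and the Y-linked Eif2s3y (1.04). Fezf2 (1.80), Plagl1 (1.4) and Gbx2 (1.19) were called lower at day 4 and not called at day 6.

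A downward change with opposite calls at the 2 days was found for Dbx1 (-2.88), Neurog1 (-1.93) and Ccnd2 (-1.56), all higher at day 4 and lower at day 6. En2 (-1.48), Lhx5 (-1.18), Hes5 (-1.06) and Irx3 (-0.66) were called higher at day 4 and not called at day 6. The neural genes Wnt7a (-1.85), Isl1 (-1.57), Sp8 (-1.32), Sfrp2 (-0.98) and Chrna3 (-0.84) were called at day 6 and not at day 4.

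Of other genes with a downward change, the contractile and epithelial genes Acta2 (-1.42) and Krt18 (-0.89), the annexin Anxa1 (-1.34), laminin Lamb1 (-0.97), the growth factor Hbegf (-2.06), the early gene Egr1 (-1.04), metallothionein Mt1 (-0.95) and the lipid carrier Apoe (-0.78) were called lower at both days. The matrix and secreted genes Postn (-1.27), Ccn2 (-1.03), Col4a1 (-1.03) and Tgfb2 (-0.90), the stress gene Chac1 (-1.22) and the glucose transporter Slc2a1 (-0.66) were called lower at day 6 and not called at day 4.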

How the results depend on the processing

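The counts moved more with the processing than the direction of any named gene did. Of 195 called genes in the text, 137 were tested under all 17 alternatives, and 124 of these kept the call. The other 58 were left out by a filter or with chromosomes 8, 11 and Y, and 51 of these kept the call where they were tested. None of the 195 reversed where tested. Of the named genes that were not called, 26 were called in at least 1 alternative, so a missing call does not mean no change. Among them, Tpm4, Gpx4, Id4, Ptbp2 and Tead2 passed with another prior (adjusted p = 0.005, 0.0074, 0.015, 0.0071 and 0.014). Higher and lower counts follow in that order where both are given, and the cause of these shifts was not tested unless the alternative tests fewer genes or arrays. The 1607 and 1508 probe sets became 728 and 996 with a pseudocount of 1, and 957 and 998 with the 6 day 6 arrays alone. The higher probe sets became 1027 with median centring, 2447 with a pseudocount of 64 and 919 without chromosomes 8, 11 and Y. The 752 higher genes became 447, 375, 1200, 442 and 396 with median centring, pseudocounts of 1 and 64, the 6 arrays alone and without these chromosomes. The 160 and 344 probe sets with a 2-fold change became 905 and 947 at 1.5-fold, 285 and 567 with a pseudocount of 1 and 54 and 149 with 64, and the higher ones 90 with a filter at the 60th percentile. The 110 higher listed genes became 67 with a pseudocount of 1.

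With 1 array left out, the ranges were 843 to 1128 and 967 to 1146 for probe sets, 378 to 502 and 625 to 731 for genes, 158 to 203 and 336 to 366 for 2-fold changes and 73 to 88 and 154 to 169 for listed genes. The deviations of same-numbered arrays had correlations of -0.11, -0.133 and 0.147, within the range of -0.139 to 0.257 for differently numbered arrays. So few arrays cannot show whether the numbers pair samples, and the main fit did not pair them. With a replicate block the probe sets were 1397 and 1334, the genes 656 and 829, the 2-fold changes 154 and 342 and the listed genes 101 and 180.

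Signal limits the dim genes: below an intensity of about 11.9 the pseudocount of 16 sets most of the difference. A change of 0.5 on the log2 scale was rarely called in simulated data, which held far fewer changes. In the data some smaller differences were called.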

Other observations

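Of the 3115 called probe sets, 356 have no single gene symbol in the annotation used and are not named here. Among the 9010 genes with several probe sets, 3 had probe sets called in both directions. Over all genes the differences at day 4 and day 6 had a correlation of 0.545, given as a description across genes, which are not independent.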
